A study of Rattus norvegicus with 9 samples.

Results

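The genes described here encode the machinery that makes small extracellular vesicles inside the cell and releases them at the plasma membrane. The list holds 40 genes of the 41801 genes counted in the series, taken by symbol: 3 of ESCRT-0, 4 of ESCRT-I, 3 of ESCRT-II, 9 of ESCRT-III, 2 VPS4 ATPases, 5 of the syntenin-ALIX route, 8 Rab GTPases and a Rab effector counted together, 2 neutral sphingomyelinases of the ceramide route and 4 SNARE proteins. All 40 were detected, from 1212 UMIs for Sytl4 to 201058 UMIs for Sdcbp over all cells kept.

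Male Sprague-Dawley rats of 6 to 8 weeks received a circular tibial osteotomy of 3 mm and a skin wound of 4 mm on the back of the foot. In the TO arm nothing further was done, and in the TOE arm radial extracorporeal shock waves were applied over the osteotomy on days 2 and 4 after injury. Tissue from the osteotomy site was collected 0, 4 or 24 h later and profiled by droplet single-cell RNA sequencing, with 1 library per condition, to ask which cells of the site could be the source of vesicles found in plasma. The 8 libraries used were TO 2d 0h, TO 2d 4h, TO 4d 4h, TO 4d 24h, TOE 2d 4h, TOE 2d 24h, TOE 4d 4h and TOE 4d 24h, and TO 2d 24h was not analysed here. TO 2d 0h is the TO library of day 2 with collection at 0 h, and the other names read in the same way. On this schedule, the TOE libraries of day 2 followed 1 session of shock waves and those of day 4 followed 2. All groups share the osteotomy and the foot wound, so no library shows uninjured bone. TOE and TO can be set side by side at 3 of these times, called the pairs 2d 4h, 4d 4h plus 4d 24h. Where the 4 libraries of an arm are given as a row of values, they stand in the order just named. The design counts 9 rats for the 9 samples of the series and does not tie rats to libraries.

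Small vesicles form when the membrane of a late endosome buds inward, which turns the endosome into a multivesicular body. ESCRT-0, ESCRT-I and ESCRT-II gather tagged cargo and bend the membrane, ESCRT-III closes the neck of the bud, and the VPS4 ATPases take the ESCRT-III filament apart. Syntenin and ALIX form a parallel route that starts from syndecans, and neutral sphingomyelinase 2 forms a further route by making ceramide. Rab GTPases then bring the multivesicular body to the cell surface, where SNARE proteins fuse the membranes and the vesicles leave the cell. Most of these proteins also serve other membrane traffic, including lysosomal breakdown, granule release and cell division, and their messages do not count vesicles.

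The libraries held 12451 to 17187 barcodes and 95954800 to 144146202 UMIs, and 110425 cells were kept. The unit of level is CPM, in which a gene's summed UMIs are scaled so that the UMIs of all genes in the same cells of a library add up to 1000000. Since UMIs were not scaled by transcript length, levels are compared between cells and libraries for 1 gene at a time. Intervals have a level of 95% and describe counting error alone. Any 2 libraries shared 40 to 110 barcode sequences. The TO 2d 4h library held 2683 of the 6369 erythroid-like cells, and TOE 4d 24h held 24 of the 2001 macrophage-like cells. Pairs at those times therefore differed in composition as well as in treatment. Class names rest on marker genes, and the markers of mesenchymal-like cells summed to between 64748 and 215651 CPM in that class against at most 5412 CPM in any library of the other 11 classes described.

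Across cell classes, most of the 40 genes were spread widely and a few were concentrated. For each gene, the class with the highest median CPM over libraries was set against the median of the 12 class medians. This ratio ran from 1.19 for Vps28 to 179 for Smpd3, with a median of 1.78, and it reached 2 for 16 of the 40 genes. The ratio over all genes is not given here, so the list is not set against a background. Neutrophil-like and endothelial-like cells were the highest class for 9 genes each, macrophage-like cells for 5, T/NK-cell-like cells for 4, B-cell-like and osteoclast-like cells for 3 each, and mesenchymal-like, dendritic-cell-like and monocyte-like cells for 2 each. Erythroid-like cells were the highest class for 0 genes and the lowest for 15. Neutrophil-like cells, highest for 9, were also the lowest class for 8 genes. The 40 genes together took 3391 CPM in neutrophil-like cells at the median library, 3326 CPM in macrophage-like cells, 2335 CPM in mesenchymal-like cells and 1488 CPM in erythroid-like cells. The classes are clusters of these same cells, so their levels are a description with no test. The class named dendritic-cell-like fell mainly into 1322 dendritic-cell-like and 738 HSPC-like cells at a finer clustering. The latter, like hematopoietic stem and progenitor cells, lie in a cluster led by Pla2g2a, Pf4 and Meis1.

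**Figure D1:**
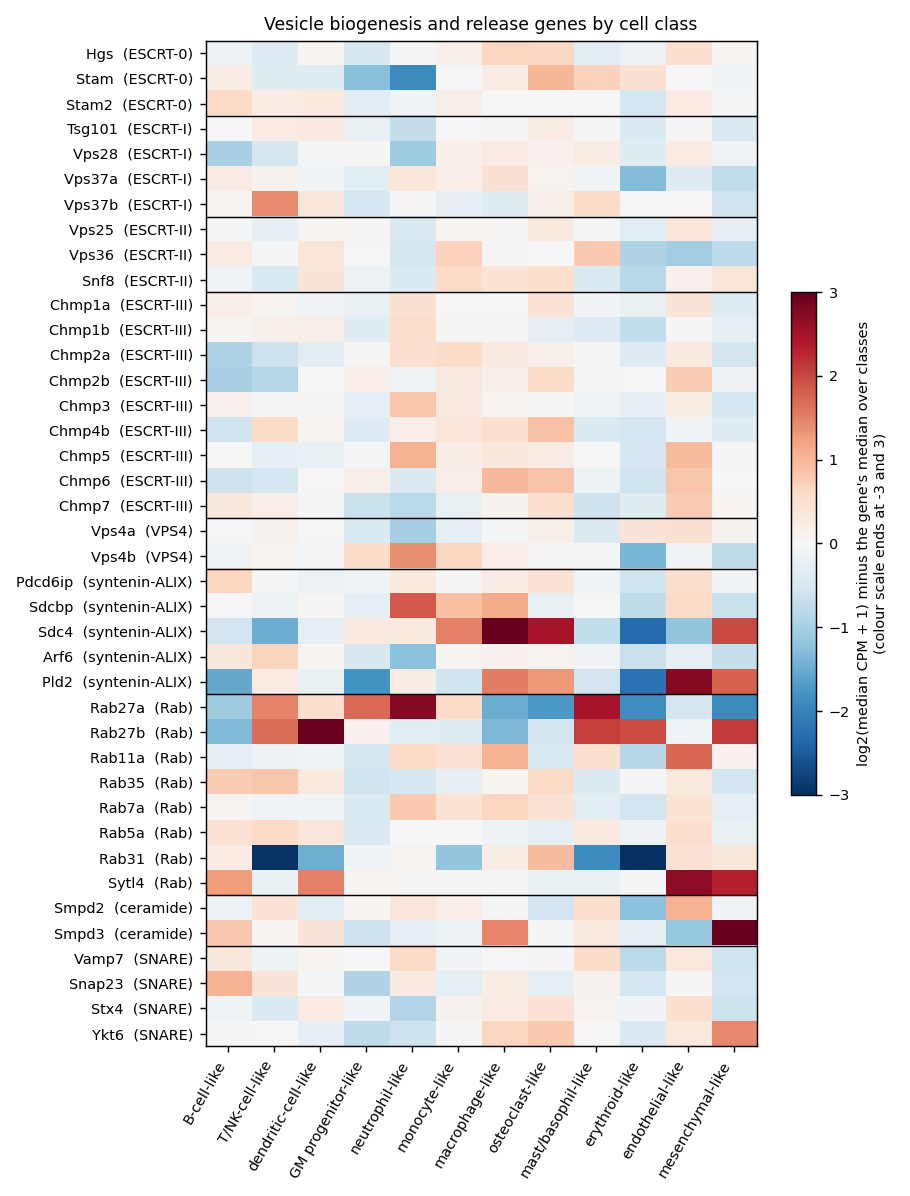
Heat map of the 40 genes (grouped by route) over 12 cell classes, coloured by the class median CPM relative to the other classes for the same gene. Smpd3 stands apart in mesenchymal-like cells at 218 CPM, while the highest class of Vps28 is 1.19 times the median class.

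Tsg101, the ESCRT-I subunit that binds cargo and is widely used as a vesicle marker, was highest in dendritic-cell-like cells with a median of 85.4 CPM and lowest in neutrophil-like cells with 42.4 CPM. Within the former class the median of Tsg101 was 107 CPM in the HSPC-like and 67.7 CPM in the dendritic-cell-like cells. Vps28, another ESCRT-I subunit, had its highest median of 64.6 CPM in macrophage-like cells and its lowest of 25.3 CPM in neutrophil-like cells. Stam2, an ESCRT-0 subunit that binds ubiquitin, was highest in B-cell-like cells, at 46.5 to 59.2 CPM in the 8 libraries. Stam2, Rab11a and Smpd3 were the 3 genes whose lowest library in the highest class lay above the highest library of the second class. The share of all genes that meet this rule is not given here. Neutrophil-like cells had the largest summed level of the ESCRT-III genes, with a median of 675 CPM, and of the VPS4 pair, with 338 CPM. Within that class Vps4b, which dismantles ESCRT-III filaments, had a median of 320 CPM and its relative Vps4a had 17.0 CPM, the lowest class median of Vps4a. Vps4a was highest in endothelial-like cells, with 48.6 CPM. The pair was therefore spread in opposite ways between neutrophil-like and endothelial-like cells. Vps37b, an ESCRT-I subunit, was highest in T/NK-cell-like cells, where it ran from 103 CPM in TOE 2d 24h through a median of 159 CPM to 337 CPM in TO 2d 4h. The second class for Vps37b was mast-cell/basophil-like, with a median of 86.7 CPM.

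The syntenin-ALIX genes had 1072 CPM in all in macrophage-like cells, against 212 to 750 CPM in the other classes. Sdc4 encodes syndecan-4, a surface proteoglycan whose tail binds syntenin. In macrophage-like cells Sdc4 was at 527, 540, 475 and 226 CPM in the TO libraries. In the TOE libraries it was at 532, 493, 539 and 101 CPM, the last from 30 UMIs of 24 cells. Both libraries of 4d 24h were thus the lowest, and the other 6 lay within 475 to 540 CPM. Osteoclast-like cells were second for Sdc4, with a median of 199 CPM. Sdcbp, which encodes syntenin itself, was highest in neutrophil-like cells, from 454 CPM in TOE 2d 4h to 821 CPM in TO 2d 0h, with a median of 560 CPM. Macrophage-like cells followed with a median of 336 CPM for Sdcbp. Pld2, a phospholipase D that acts with Arf6 on syntenin vesicles, was highest in endothelial-like cells at 16.9 to 59.6 CPM, with 18.1 CPM at the median library of mesenchymal-like cells. Pdcd6ip, the gene of ALIX, was highest in B-cell-like cells with a median of 144 CPM.

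The Rab27 paralogs, which dock multivesicular bodies and granules at the cell surface, peaked in different classes. In neutrophil-like cells Rab27a was at 251, 384, 370 and 227 CPM in the TO libraries. In the same class it was at 438, 203, 362 and 391 CPM in the TOE libraries, so the highest and the lowest were both TOE libraries of day 2. Mast-cell/basophil-like cells came second for Rab27a, with a median of 303 CPM, and the ranges of these classes overlapped. Mesenchymal-like cells were the lowest class for Rab27a, with a median of 13.5 CPM. Rab27b was highest in the class named dendritic-cell-like, where its lowest, median and highest libraries had 21.4, 44.4 and 80.6 CPM, but 98.3% of its UMIs there came from the HSPC-like cells. In these it ran from 53.9 CPM through a median of 91.7 CPM to 191 CPM, and in the 1322 dendritic-cell-like cells proper it had a median of 1.39 CPM. Mesenchymal-like cells were the second class for Rab27b, with 8.52, 14.4 and 40.8 CPM in the lowest, median and highest library. The class that holds the HSPC-like cells carried 44.6% of all Rab27b UMIs and 4.29% of the UMIs of all genes. Sytl4, a Rab27 effector of the synaptotagmin-like family, was low throughout, with medians of 6.36 CPM in endothelial-like and 4.69 CPM in mesenchymal-like cells. Rab11a, a GTPase of recycling endosomes, was at 209 to 259 CPM in endothelial-like cells, above the 109 to 208 CPM of macrophage-like cells, the second class. Rab31, an endosomal GTPase, was highest in osteoclast-like cells with a median of 363 CPM and lowest in erythroid-like cells with 19.3 CPM.

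Of the SNARE genes, Ykt6, a SNARE anchored by lipids, was highest in mesenchymal-like cells, from 41.4 CPM through a median of 66.8 CPM to 95.1 CPM, with osteoclast-like cells second at 42.1 CPM. Snap23, a SNARE of the plasma membrane, was highest in B-cell-like cells, with a median of 168 CPM and a range of 52.0 to 229 CPM. Vamp7 and Stx4 varied by 1.53 and 1.43 times between the highest class and the median class.

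**Figure D2:**
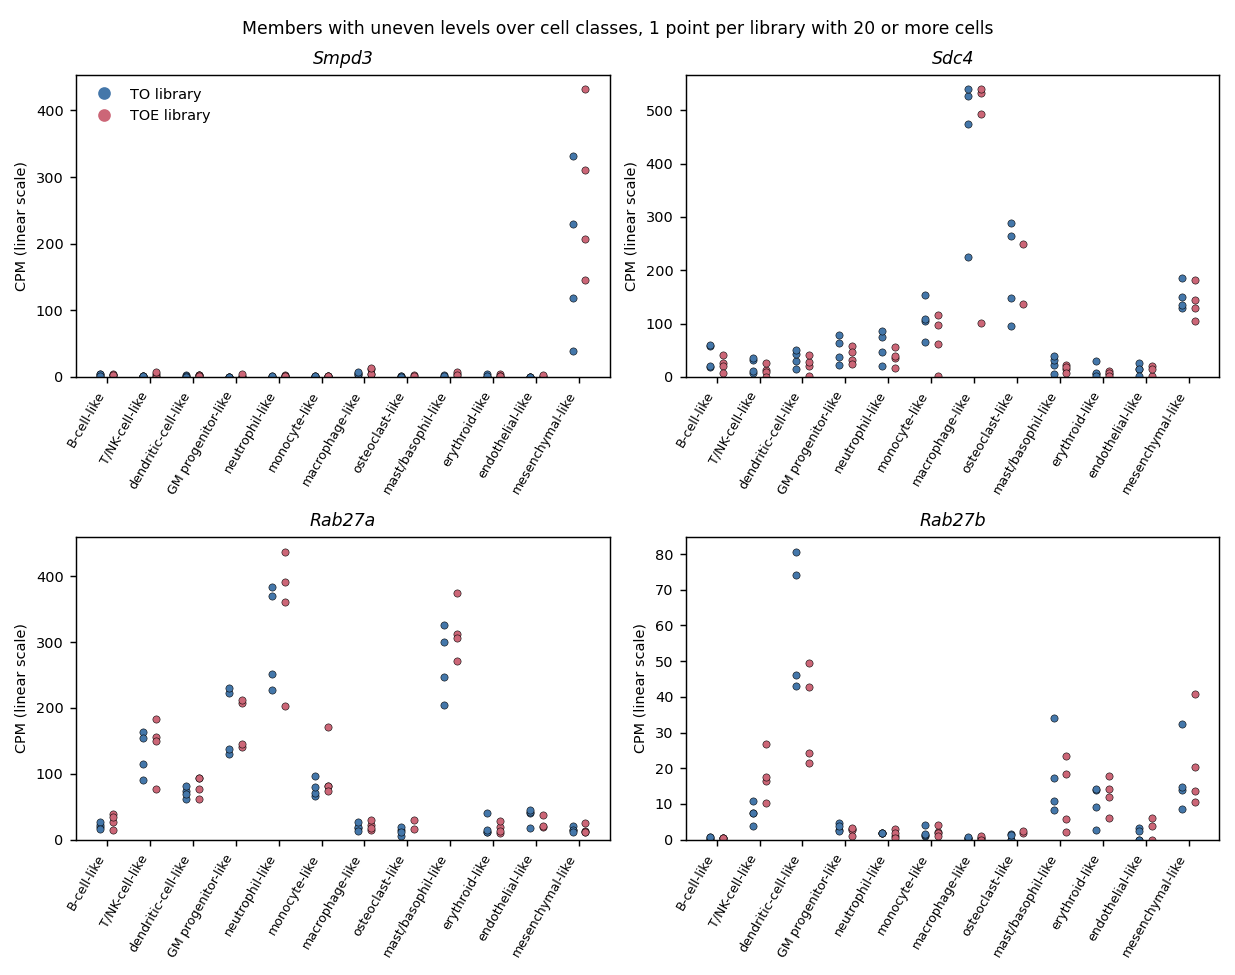
CPM (linear axes) of genes with uneven levels by cell class, with 1 point per library that held at least 20 cells of the class (blue TO, red TOE). Sdc4 in macrophage-like cells sits between 475 and 540 CPM in 6 libraries and lower in both libraries of 4d 24h, and Rab27a and Rab27b peak in different classes, Rab27b in the class that holds the HSPC-like cells.

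Smpd3 was the gene most confined to the mesenchymal-like class. It encodes neutral sphingomyelinase 2, which makes ceramide at membranes and is also known from skeletal tissue. Mesenchymal-like cells held 80.0% of its 9567 UMIs and 4.89% of the UMIs of all genes. By library, Smpd3 in mesenchymal-like cells was at 119, 331, 39.4 and 229 CPM in the TO arm. It was at 310, 146, 207 and 432 CPM in the TOE arm. The lowest and the highest library differed by more than 10 times, and the next class, macrophage-like cells, had a median of 5.15 CPM. B-cell-like cells carried 12.1% of its UMIs but held 42.3% of the UMIs of all genes. Smpd2, the other neutral sphingomyelinase gene, had no such pattern and its highest class median was 17.0 CPM, in endothelial-like cells.

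Within the mesenchymal-like class, Smpd3 followed the osteoblast-like cells. Over the 8 libraries summed, it was at 506 CPM in the 305 osteoblast-like cells, 295 CPM in the 163 Cxcl12-rich stromal-like cells, 10.1 CPM in chondrocyte-like cells, 1.56 CPM in the 179 fibroblast-like cells and 1.45 CPM in pericyte/smooth-muscle-like cells. A sub-cluster led by Jchain, an antibody gene, was at 170 CPM. In the Cxcl12-rich cells 1507 of the 1715 Smpd3 UMIs came from TOE 2d 24h, and without that library their level was 116 CPM, with 0 to 212 CPM in single libraries, while osteoblast-like cells were at 510 CPM without it. Within TOE 2d 24h the Cxcl12-rich cells were at 375 CPM and the osteoblast-like cells at 495 CPM, with 1106 UMIs in the latter. The osteoblast-like cells alone had 284, 908, 679 and 267 CPM in the TO libraries. They had 605, 495, 889 and 814 CPM in the TOE libraries. All 8 libraries were thus above 266 CPM in this sub-cluster, including TO 4d 4h, which was the lowest in the class as a whole. That library held 13 osteoblast-like cells, and TO 2d 4h held 19. Osteoblast-like cells were the lowest sub-cluster for 30 of the 40 genes over the libraries summed, among them Sdcbp with 43.1 CPM, against 171 CPM in fibroblast-like cells. A sub-cluster led by LOC102551532 was left out of that ranking. The share of all genes lowest in osteoblast-like cells is not given here. In single libraries, among the 2 to 9 sub-clusters with at least 10 cells, osteoblast-like cells were the lowest for 13 to 29 genes. The 29 were in TO 2d 4h, where 2 sub-clusters were compared. Sdcbp was lowest there in 7 of 8 libraries and below fibroblast-like cells in the 3 libraries that held both.

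**Figure D3:**
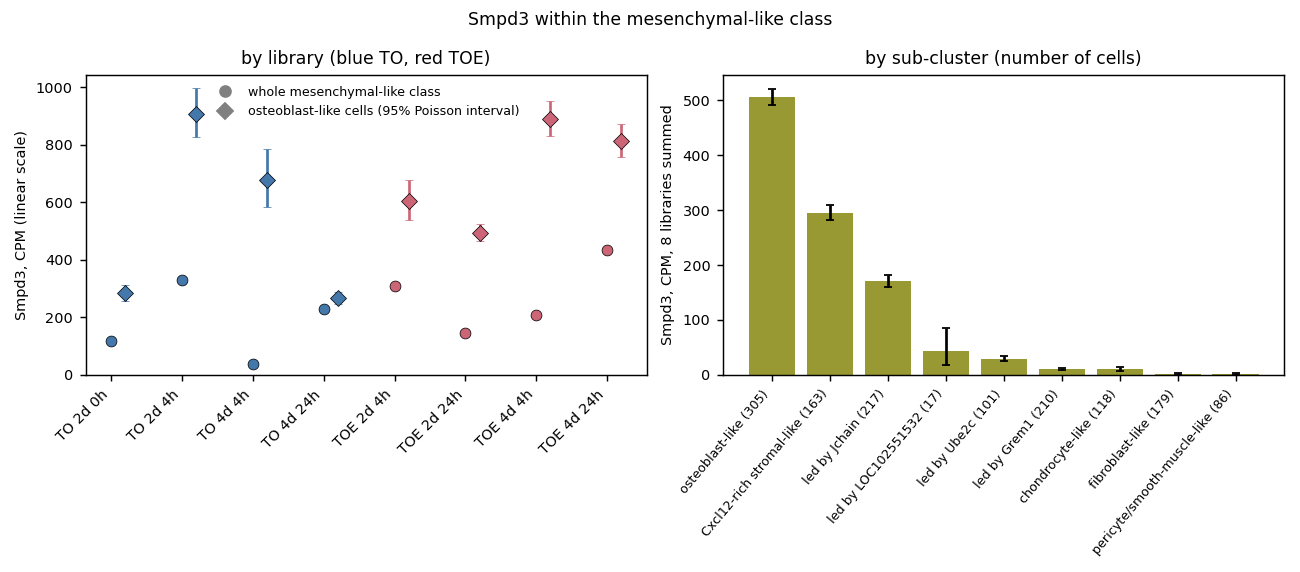
Left, CPM of Smpd3 by library in the whole mesenchymal-like class (circles) and in its osteoblast-like cells (diamonds), blue for TO and red for TOE, with 95% Poisson intervals for the latter. Right, CPM by sub-cluster with the 8 libraries summed and the number of cells in parentheses, from 506 CPM in osteoblast-like to 1.45 CPM in pericyte/smooth-muscle-like cells.

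TOE was next compared with TO in all cells of each pair, which asks whether the tissue as a whole carried more of these messages after shock waves. A gene was counted where the CPM differed by at least 1.5-fold and the pair held at least 50 UMIs. With 1 library on each side there is no test, and a fold describes these libraries. At 2d 4h, 0 of 40 genes were higher in TOE, beside 15.4% of all genes, and 6 were lower, beside 13.8%. At 4d 4h, 2 were higher, beside 5.04% of all genes, and 1 was lower, beside 8.44%. At 4d 24h, 4 were higher, beside 28.1%, and 8 were lower, beside 15.1%. As shares of the 40 genes these are 0% and 15%, 5% and 2.5%, and 10% and 20%. The median log2 ratio of the 40 genes was 0.05, 0.01 and -0.11 in the 3 pairs, against 0.09, -0.07 and 0.12 over all genes measured.

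Smpd3, Pld2, Rab27a and Rab31 were the genes higher in TOE at 4d 24h. Smpd3 went from 7.26 CPM in TO to 4.67 CPM in TOE in the first pair, from 4.38 to 10.4 CPM in the second and from 7.56 to 11.7 CPM in the last. It was thus lower in TOE in the first pair and higher in both pairs of day 4, with ratios of 0.642 (0.578 to 0.714), 2.37 (2.14 to 2.64) and 1.55 (1.42 to 1.70). The highest Smpd3 level in all cells, 27.1 CPM, was in TOE 2d 24h, which has no TO library beside it and held 498 of the 1396 mesenchymal-like cells. At 4d 4h the shares of the classes alone would have moved Smpd3 by -0.35 on the log2 scale, while the change within classes was 1.60. The latter includes shifts between sub-clusters of the mesenchymal-like class, which are described below. Rab27a was at 57.6 CPM in TO and 130 CPM in TOE at 4d 24h, a ratio of 2.25 (2.18 to 2.32), and at 89.5 and 90.5 CPM at 2d 4h. For Rab27a at 4d 24h, the log2 ratio of 1.17 split into 0.43 from class shares, as neutrophil-like cells were 2087 in TO and 2849 in TOE, and 0.74 within classes. Rab31 went from 125 to 198 CPM and Pld2 from 1.57 to 2.82 CPM at 4d 24h. Relative to the median shift of all genes at 4d 24h, and also without erythroid-like cells, 2 genes were higher in TOE and not 4, since Rab31 and Smpd3 then fell short of 1.5-fold. Without erythroid-like cells, 27.5% of all genes were higher in TOE at 4d 24h.

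The genes lower in TOE included Sdc4 and Snap23 in both the first and the last pair. Sdc4 in all cells was at 59.4, 90.4, 89.4 and 31.7 CPM in the TO libraries. It was at 47.5, 77.7, 95.6 and 12.5 CPM in the TOE libraries. Its ratio of TOE to TO was 0.525 (0.509 to 0.542) in the first pair and 0.395 (0.369 to 0.422) in the last, while the libraries of 4d 4h differed by less than 1.5-fold. In order of the pairs, Snap23 was at 116 and 72.9 CPM, 104 and 89.6 CPM, and 130 and 57.3 CPM in TO and TOE. Its level in TO 2d 0h was 134 CPM and in TOE 2d 24h 122 CPM, so TOE 2d 4h and TOE 4d 24h were its 2 lowest libraries. At 4d 24h, class shares alone gave -0.15 beside the log2 ratio of -1.34 for Sdc4 and 0.06 beside -1.18 for Snap23. The summed CPM of 12 immediate-early genes was lowest in the same 2 libraries, at 3373 in TOE 2d 4h and 3112 in TOE 4d 24h against 4109 to 7077 in the others. Of these genes Fos and Jun were lowest in TOE 2d 4h, at 237 and 496 CPM, but in TOE 4d 24h they were at 390 and 848 CPM, above the 273 and 811 CPM of TO 4d 24h. Its part in these results was not tested.

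Of the remaining genes lower in TOE at 4d 24h, Arf6, a small GTPase of endosome traffic, went from 129 to 63.1 CPM, with a ratio of 0.490 (0.475 to 0.505). Rab27b went from 7.49 to 3.88 CPM, where class shares gave -0.56 of its log2 ratio of -0.95. Sytl4 went from 1.29 to 0.496 CPM on 151 and 45 UMIs. Vps37b, Chmp1b and Rab35 had ratios between 0.632 and 0.654. At 2d 4h Vps4b went from 156 to 101 CPM, and Vps37b and Pld2 had ratios of 0.665 and 0.654. At 4d 4h the gene counted beside Smpd3 was Vps28, from 33.0 to 49.7 CPM, and Sytl4 was the one lower in TOE, with 1.15 and 0.691 CPM. TOE 4d 24h had the lowest level of the 8 libraries for 16 of the 40 genes in all cells, and TO 2d 4h for 10. The shares of all genes that were lowest in these libraries are not given here, so the counts have no background.

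**Figure D4:**
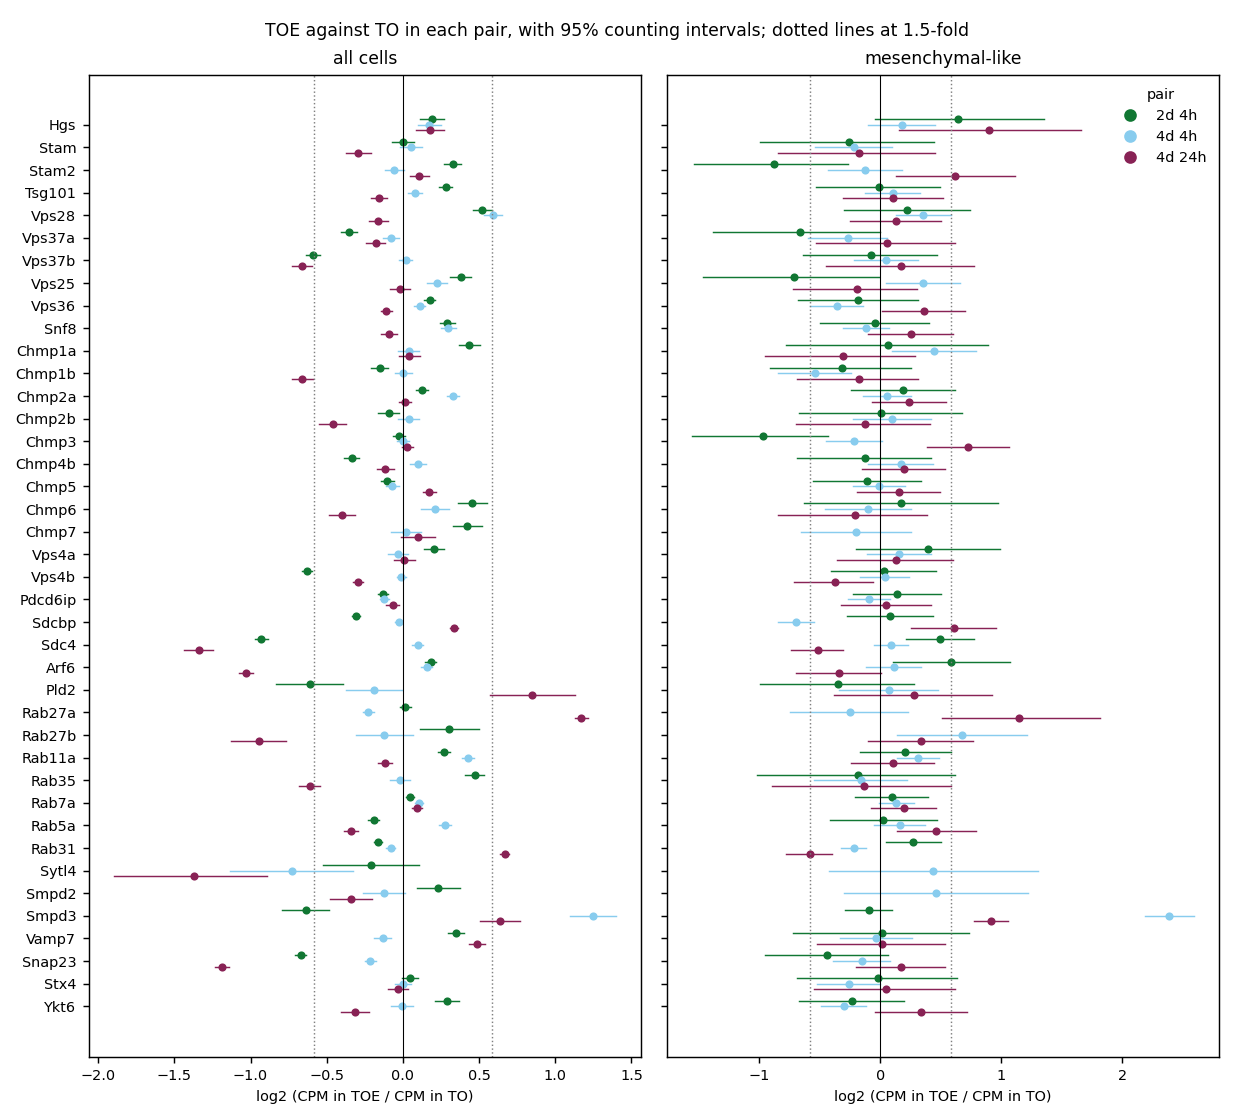
Log2 of the ratio of CPM in TOE to CPM in TO for the 40 genes in each of the 3 pairs (colours), in all cells and in mesenchymal-like cells, with 95% counting intervals and dotted lines at 1.5-fold. In mesenchymal-like cells, Smpd3 at 4d 4h stands farthest from 0, with a ratio of 5.24.

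In mesenchymal-like cells, TOE and TO held 71 and 63 cells in the first pair, 184 and 275 in the second, and 80 and 102 in the last. Of the 275 cells of TO 4d 4h, 95 lay in the sub-cluster led by Jchain, which also has Camp, S100a8 and Mcpt8 of other cell types among its leading genes. Without such sub-clusters the pair 4d 4h held 159 and 180 cells, with 3 of 39 genes higher in TOE (7.69%), beside 8.3% of all genes, and 1 lower (2.56%), beside 11.9%. A cluster of 3170 cells with 6 of the 12 mesenchymal markers raised was left out of the class for its low depth, a median of 792 UMIs a cell, and is called the low-UMI cluster. It held 613 TOE cells and 31 TO cells in the first pair, 208 and 125 in the second, and 243 and 341 in the last. At the finer clustering, a low-UMI cluster with 4 of 6 granulocyte-monocyte progenitor markers raised held 691 TOE and 30 TO cells at 2d 4h. Its leading genes, such as Jchain, Retnlg and Igll1, include 0 of these markers. A low-UMI cluster with 8 of 12 mesenchymal markers raised held 24 and 10 there. Values with the low-UMI cluster therefore take in many cells whose kind was not settled. In the class without that cluster, 35 of the 40 genes reached 50 UMIs over the pair 2d 4h. Hgs alone was higher in TOE, beside 8.23% of all genes, and 4 genes were lower, beside 12.3%. At 4d 4h all 40 reached it, and 2 were higher, beside 7.74%, and 1 was lower, beside 12.0%. At 4d 24h, 37 reached it, and 6 were higher, beside 25.5%, and 1 was lower, beside 7.3%. These 6 are 16.2% of the genes measured, a smaller share than that of all genes. All measured genes together had a median log2 ratio of 0.23 at 4d 24h, and relative to it 3 genes were higher and 3 lower.

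Smpd3 had the largest change in this class. Its ratio of TOE to TO was 0.936 in the first pair, 5.24 (4.56 to 6.04) in the second and 1.88 (1.71 to 2.08) in the last. With the low-UMI cluster these ratios were 0.596, 5.09 and 1.83, so the first was then past 1.5-fold and lower in TOE. That cluster added far more TOE than TO cells at 2d 4h, and their kind was not settled. At 4d 4h, fibroblast-like cells made up 125 of the 275 cells in TO and 26 of the 184 cells in TOE, and osteoblast-like cells 13 and 39. With each sub-cluster held at its level over all libraries, these shares alone gave 36.4 CPM in TO and 127 CPM in TOE, a log2 ratio of 1.81 beside the 2.39 of the class. In osteoblast-like cells alone the ratio at 4d 4h was 1.31 (1.11 to 1.55), within 1.5-fold. At 4d 24h the shares gave a log2 ratio of -0.52 beside the 0.91 of the class, and osteoblast-like cells alone went from 267 to 814 CPM, a ratio of 3.05 (2.74 to 3.40). At 2d 4h they went from 908 to 605 CPM, a ratio of 0.666 (0.574 to 0.772). Smpd3 in osteoblast-like cells was therefore lower in TOE in 1 pair, within 1.5-fold in another and higher in the last.

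Sdcbp went from 171 to 106 CPM at 4d 4h and went the opposite way, from 43.2 to 65.7 CPM at the later hour of day 4. Sub-cluster shares alone gave -0.50 of its log2 ratio of -0.70 at 4d 4h. Rab27b, at 8.52 and 13.6 CPM, was the other gene higher in TOE at 4d 4h, on 54 and 69 UMIs. At 4d 24h Rab27a went from 11.2 to 24.9 CPM, on 36 and 50 UMIs, while the 10 neutrophil-like markers summed to 2027 CPM in these TO cells and 3914 CPM in these TOE cells. In neutrophil-like cells the same markers summed to at least 229473 CPM. The part of neutrophil RNA in the Rab27a values was not tested. Hgs, the ESCRT-0 subunit also called HRS, went from 9.33 to 17.4 CPM in the last pair and from 21.6 to 33.8 CPM in the first, where its interval of 0.967 to 2.55 included no difference. Chmp3, an ESCRT-III subunit, went from 62.2 to 31.5 CPM in the first pair and from 45.4 to 75.1 CPM in the last. Stam2 went from 46.6 to 25.2 CPM and from 23.0 to 35.3 CPM in the same pairs. With the low-UMI cluster among these cells, Chmp3 and Stam2 were within 1.5-fold at 2d 4h, with ratios of 0.993 and 0.684, and at 4d 24h Stam2 was too, with 1.27, while Chmp3 had 1.66. Relative to the shift of all genes, Chmp3, Stam2 and Sdcbp fell short of 1.5-fold at 4d 24h. Vps37a and Vps25 were lower in TOE at 2d 4h, with intervals that reached 0.999 and 0.991, and both were within 1.5-fold with the low-UMI cluster. Rab31 went from 241 to 160 CPM at 4d 24h, close to the limit with a ratio of 0.666, and 0 genes were lower there without the sub-clusters led by genes of other cells, where its ratio was 0.667.

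The same counts were made in 4 other classes. In B-cell-like cells, 4 of 39 genes were higher in TOE at 2d 4h, beside 17.9% of all genes, and 4 lower, beside 11.9%. At 4d 4h, 0 were higher, beside 5.24%, and 0 lower, beside 2.33%. At 4d 24h, 3 of 40 were higher, beside 29.2%, and 9 lower, beside 14.0%. Snap23 in this class was at 189, 179, 148 and 191 CPM in the TO libraries and at 87.1, 229, 156 and 52.0 CPM in the TOE libraries. TOE 2d 4h and TOE 4d 24h were thus below all other libraries, while TOE 2d 24h was the highest. The 12 immediate-early genes summed to 2590 and 1686 CPM in B-cell-like cells of these 2 libraries and to 3778 to 5802 CPM in the others, and their part was not tested. The clusters that make up the class also differed between arms: at 4d 24h the largest, numbered cluster 0, held 3498 TO and 64 TOE cells, and cluster 6, led by Ms4a6b, 426 and 3786. In the 10 clusters with at least 20 cells of both libraries, Snap23 was lower in TOE at 4d 24h in 10, and Sdc4 in 7.

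In neutrophil-like cells, 3 of 37 genes were higher in TOE at 2d 4h, beside 24.4%, and 3 lower, beside 9.75%. At 4d 4h, 1 was higher, beside 4.78%, and 1 lower, beside 6.31%. At 4d 24h, 6 were higher, beside 26.5%, and 7 lower, beside 18.5%. Vps4b was the largest fall there, from 546 to 213 CPM at 4d 24h, and it went from 357 to 207 CPM in the first pair and from 315 to 282 CPM in the second. Rab27a went from 227 to 391 CPM and Rab31 from 107 to 237 CPM in the last pair. At 4d 24h different clusters held most of this class in each arm: cluster 21, led by Hcar2, held 1592 TO and 365 TOE cells, cluster 20, with Mgam among its leading genes, 102 and 1444, and cluster 11, led by Ngp, 392 and 1021. Within them Vps4b went from 654 to 806 CPM, from 219 to 118 CPM and from 350 to 154 CPM, so it was higher in TOE in the first and lower in the other 2. Rab27a went from 220 to 347 CPM, from 507 to 563 CPM and from 207 to 263 CPM, and Rab31 was likewise higher in TOE in 3 of 3 clusters. In monocyte-like cells, 4 of 38 genes were higher at 2d 4h, beside 13.8%, and 1 lower, beside 7.55%. At 4d 4h, 2 of 39 were higher, beside 6.74%, and 0 lower, beside 6.84%. At 4d 24h, 2 of 36 were higher, beside 24.6%, and 6 lower, beside 12.3%. Sdc4 in monocyte-like cells was at 62.0 to 153 CPM in 7 libraries and at 2.18 CPM in TOE 4d 24h, from 22 UMIs of 638 cells. Its ratio to TO 4d 24h was 0.033 (0.021 to 0.050), the lowest ratio among the 40 genes with at least 50 UMIs in the pairs of these 6 populations. Monocyte-like cells of these libraries lay in different clusters, since cluster 17, led by Cd14, held 871 TO and 12 TOE cells and cluster 14, led by Mnda, 196 and 621. In cluster 14 alone Sdc4 went from 11.7 CPM in TO to 0.711 CPM in TOE, and in cluster 17 the TO cells were at 78.7 CPM. The 12 immediate-early genes summed to 4392 CPM in TO and 5765 CPM in TOE monocyte-like cells of this pair, and their part in the Sdc4 values was not tested. Rab11a was 1.57 and 1.55 times as high in TOE monocyte-like cells at 2d 4h and 4d 4h. In macrophage-like cells, 0 of 36 were higher at 2d 4h, beside 8.14%, and 0 lower, beside 8.15%. At 4d 4h, 0 of 37 were higher, beside 3.6%, and 1 lower, beside 11.8%. At 4d 24h, with 24 cells in TOE, 3 of 26 were higher, beside 17.3%, and 5 lower, beside 20.8%.

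The 3 pairs were then fitted jointly as blocks, which tests only a change that is alike in all of them. On the schedule given, the TOE library of day 2 in these pairs followed 1 session of shock waves and those of day 4 followed 2. By edgeR's quasi-likelihood test with Benjamini-Hochberg adjustment over all genes, 0 of the 40 genes passed an adjusted p of 0.05 in all cells or in the mesenchymal-like, B-cell-like, neutrophil-like, monocyte-like or macrophage-like class. Over all genes 0 passed in the first 5 populations and 1 in macrophage-like cells, 0.00915% of those tested. At an unadjusted p under 0.05, 2 of the 40 were lower in all cells, beside 5.45% of all genes in either direction, and 0 in mesenchymal-like cells, beside 3.12%. In B-cell-like cells 3 were lower, beside 7.47%, in neutrophil-like cells 4 were lower, beside 8.16%, in monocyte-like cells 2 were higher and 1 lower, beside 9.47%, and in macrophage-like cells there were 0, beside 7.11%. DESeq2 called 1 of the 40, in B-cell-like cells, beside 0.0436% of all genes. Sdc4 in B-cell-like cells had the smallest unadjusted p of the 40 in that class, with a log2 change of -1.18 (SE 0.24) and an adjusted p of 0.639 in edgeR. It was lower in TOE in 3 of 3 pairs, at 57.3 and 26.4 CPM, 59.97 and 41.0 CPM, and 19.8 and 6.90 CPM. Snap23 in the same class had a log2 change of -1.07 (SE 0.33) and an adjusted p of 0.639. Without the pair 4d 4h, adjusted p was under 0.05 in B-cell-like cells for Sdc4, Snap23, Vps37b and Rab27a, the last higher in TOE, which is 10% of the 40 beside 8.95% of all genes in that fit. With edgeR and no filter on low counts, Vps4b in neutrophil-like cells reached an adjusted p of 0.0494, against 0.567 with the filter, beside 1.42% of all genes called. Smpd3 was not among these genes, and its pairs in all cells went in different directions.

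To describe the hour of collection, the 4 libraries collected at 4 h (2 of TO and 2 of TOE) were also set against the 4 collected at 0 h or 24 h, with the arm as a covariate in edgeR. This comparison was added after the data had been seen. The clock time of collection and of the sessions is not given in the sources used here. The median mitochondrial share of a cell was 2.06 to 2.83% in the 4 h libraries and 2.68 to 4.20% in the others, and 493 to 718 cells beside 350 to 405 were removed as doublets. The part of either in the values by hour was not tested. Of the 40 genes, 1 passed an adjusted p of 0.05 in all cells, beside 5.74% of all genes, 0 in mesenchymal-like cells, beside 1.71%, 8 in B-cell-like cells, beside 19.2%, 2 of 39 in neutrophil-like cells, beside 9.03%, 5 of 39 in monocyte-like cells, beside 14.8%, and 0 of 38 in macrophage-like cells, beside 4.08%. As shares of the genes tested these are 2.5%, 0%, 20%, 5.13%, 12.8% and 0%, so the list as a whole was close to or below the background in each population. At an unadjusted p under 0.05, 2 genes were higher and 9 lower in mesenchymal-like cells, beside 22.7% of all genes, and 2 were higher and 4 lower in macrophage-like cells, beside 22.1%. DESeq2 called Hgs and Chmp2a in mesenchymal-like cells, 5% of the genes tested beside 10.2% of all, and Chmp3 in macrophage-like cells, 2.63% beside 8.93%. Cells of the hour groups also lay in different clusters. At the finer clustering, cluster 25 of the monocyte-like class held 3529 cells from 4 h libraries and 84 from the others, and cluster 27 held 30 and 2764. At the coarser clustering that forms the classes, cluster 0 of the B-cell-like class held 243 and 11492 cells, and cluster 7 held 9430 and 399.

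Chmp3, an ESCRT-III subunit that helps to close the bud neck, was lower at 4 h in each of the 6 populations and passed the test in 4 of them. In all cells it was at 87.0, 83.5, 85.3 and 83.7 CPM in TO 2d 4h, TO 4d 4h, TOE 2d 4h and TOE 4d 4h. At 0 h or 24 h it was at 114, 122, 114 and 124 CPM in TO 2d 0h, TO 4d 24h, TOE 2d 24h and TOE 4d 24h. The groups did not overlap, and the log2 change was -0.55 (SE 0.10, adjusted p 0.0281 in edgeR). In monocyte-like cells Chmp3 was at 83.3 to 88.9 CPM at 4 h and 126 to 145 CPM otherwise, a log2 change of -0.63 (SE 0.10, adjusted p 0.00842 in edgeR), and it passed in 8 of 8 fits that each left out 1 library. In all cells it passed in 2 of 8 such fits, with an adjusted p of up to 0.107 without TO 2d 4h. In B-cell-like and neutrophil-like cells the log2 changes were -0.53 and -0.65, with adjusted p of 0.0233 and 0.0375 in edgeR. The largest adjusted p in fits that left out 1 library was 0.0869 without TO 4d 4h and 0.131 without TO 4d 24h, in this order. In B-cell-like cells Chmp3 did not pass without TO 2d 0h or without TO 4d 4h. In neutrophil-like cells it did not pass without TO 2d 4h, TO 4d 4h, TO 4d 24h, TOE 2d 4h, TOE 2d 24h or TOE 4d 4h. Set against each other within clusters, with no test, the median of Chmp3 was lower at 4 h in 3 of 3 monocyte-like clusters with no overlap in 3, in 3 of 3 neutrophil-like clusters with no overlap in 2, and in 10 of 11 B-cell-like clusters with no overlap in 4. In macrophage-like and mesenchymal-like cells the log2 changes were -0.58 and -0.66, with adjusted p of 0.0660 and 0.119.

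Chmp2a, an ESCRT-III subunit that acts with Chmp3, was at 41.3 to 50.2 CPM at 4 h and 65.4 to 72.1 CPM otherwise in B-cell-like cells. Its log2 change there was -0.62 (SE 0.11, adjusted p 0.00812 in edgeR), and it passed in 8 of 8 fits without 1 library. Its median was lower at 4 h in 10 of 11 clusters of the class, with no overlap in 6. The other ESCRT genes lower at 4 h in B-cell-like cells were Chmp6, Snf8 and Vps25, with log2 changes of -1.01, -0.37 and -0.70, and Smpd2 had -0.68. They passed in 5, 2, 5 and 1 of 8 fits without 1 library, in this order. In the same class Pdcd6ip and Sdc4 were higher at 4 h, with log2 changes of 0.64 and 1.40, and each passed in 3 of 8 such fits. Sdc4 in B-cell-like cells was at 26.4 to 59.97 CPM at 4 h and 6.90 to 20.0 CPM otherwise, and its median was higher at 4 h in 11 of 11 clusters. In monocyte-like cells Rab31, Stx4 and Vps37b were higher at 4 h, with log2 changes of 0.64, 0.41 and 0.71, and Chmp6 was lower, with -0.65. Stx4, Vps37b and Chmp6 passed in 2, 3 and 1 of 8 fits without 1 library, with adjusted p of up to 0.0824 without TO 2d 0h, 0.140 without TOE 4d 4h and 0.121 without TO 2d 4h in edgeR. Rab31 in that class was at 83.2 to 130 CPM at 4 h and 62.2 to 85.1 CPM otherwise, so the groups overlapped, and it passed in 8 of 8 fits without 1 library. In neutrophil-like cells Tsg101 was higher at 4 h, with 49.2, 51.2, 67.6 and 56.2 CPM against 28.3 to 35.6 CPM, a log2 change of 0.64 (SE 0.13, adjusted p 0.0216 in edgeR). The Tsg101 call held in 3 of 8 fits without 1 library, with an adjusted p of up to 0.0713 without TO 4d 4h in edgeR. Without TOE 4d 24h, the calls in B-cell-like cells were 4 higher and 12 lower rather than 2 and 6, which is 40% of the 40 beside 31.8% of all genes, and without TO 4d 4h they were 0 and 1, beside 7.09%.

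**Figure D5:**
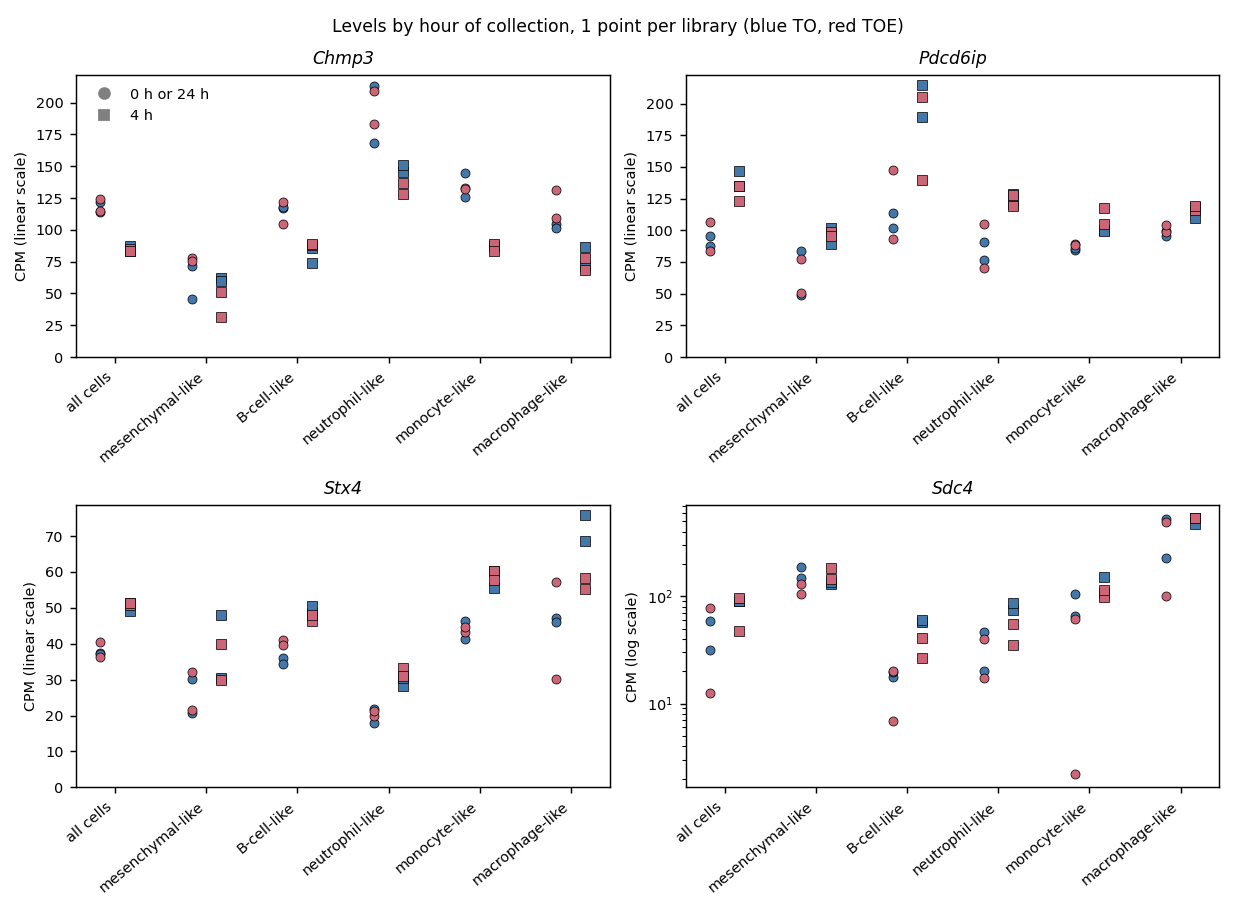
CPM of genes named in the comparison by hour of collection in 6 populations, with 1 point per library (squares 4 h, circles 0 h or 24 h, blue TO, red TOE; axes marked as linear or log). Chmp3 in all cells lies at 83.5 to 87.0 CPM at 4 h and at 114 to 124 CPM otherwise.

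The promoters of genes that moved with the hour are shown for the sequence they start from. RefSeq gives 300 bases, from 250 before to 50 after the start, for 32 of the 40 genes in the rat build GRCr8, which is not the build of the counts. Motifs were searched on both strands. The E-box bound by clock and MYC family factors was searched as CACGTG. It stood in 4 of the 32 promoters (12.5%) and in 6.65% of all 27457 promoters of this length. The half-site of the cyclic AMP response element was searched as TGACG. It stood in 12 promoters (37.5%), beside 22.0% of all promoters. The core promoter motif of TATA-binding protein was searched as TATAAA. It stood in 0 of the 32 promoters and in 14.3% of all. The median GC content was 64% in the 32 promoters and 52.3% in all. Of the genes called higher at 4 h, Pdcd6ip, Rab31 and Vps37b hold the E-box, and Sdc4, Stx4 and Tsg101 do not. Tsg101 holds the half-site, and Sdc4 and Stx4 hold none of the 3 motifs. Chmp3, Chmp2a, Snf8, Vps25 and Smpd2, called lower at 4 h, lack the E-box. Motifs were not tested against direction. A match describes letters in a window and not a binding site. The 4 sequences shown are Chmp3 and Chmp2a, ESCRT-III genes lower at 4 h like Chmp6, which has no entry, and Pdcd6ip and Vps37b, higher at 4 h in B-cell-like and monocyte-like cells respectively. Capitals mark motifs, and Chmp3 has none of the 3. Chmp2a holds the half-site on both strands as an overlapping palindrome, Pdcd6ip holds the E-box, and Vps37b holds the same palindrome and an E-box that overlaps a further half-site of the opposite strand. They lie at chr4:105134610-105134909 (plus strand), chr1:82734695-82734994 (minus strand), chr8:122524944-122525243 (minus strand) and chr12:38220723-38221022 (plus strand), in this order.
Chmp3: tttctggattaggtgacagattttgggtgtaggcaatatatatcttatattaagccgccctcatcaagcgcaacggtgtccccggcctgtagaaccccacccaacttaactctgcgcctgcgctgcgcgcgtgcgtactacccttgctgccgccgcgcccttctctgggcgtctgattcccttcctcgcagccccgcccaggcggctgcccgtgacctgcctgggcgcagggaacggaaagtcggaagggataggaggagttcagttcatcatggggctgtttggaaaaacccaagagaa
Chmp2a: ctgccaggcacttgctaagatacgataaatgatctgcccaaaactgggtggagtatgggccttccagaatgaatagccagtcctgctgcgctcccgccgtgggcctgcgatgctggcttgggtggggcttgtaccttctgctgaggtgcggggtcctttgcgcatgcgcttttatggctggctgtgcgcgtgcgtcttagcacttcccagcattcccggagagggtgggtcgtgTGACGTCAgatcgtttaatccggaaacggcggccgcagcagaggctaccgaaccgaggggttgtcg
Pdcd6ip: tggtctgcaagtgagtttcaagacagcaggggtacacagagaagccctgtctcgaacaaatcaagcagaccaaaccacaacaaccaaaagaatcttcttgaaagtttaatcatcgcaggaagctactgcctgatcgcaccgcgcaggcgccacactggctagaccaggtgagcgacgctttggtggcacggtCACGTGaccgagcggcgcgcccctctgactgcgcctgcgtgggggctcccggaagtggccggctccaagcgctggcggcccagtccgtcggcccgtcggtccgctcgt
Vps37b: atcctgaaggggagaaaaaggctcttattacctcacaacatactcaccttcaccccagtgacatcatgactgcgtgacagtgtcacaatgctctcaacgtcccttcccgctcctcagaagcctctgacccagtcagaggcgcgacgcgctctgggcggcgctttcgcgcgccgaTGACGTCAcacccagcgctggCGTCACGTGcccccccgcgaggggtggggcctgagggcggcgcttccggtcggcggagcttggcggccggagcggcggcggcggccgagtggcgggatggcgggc

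Of a wider list of 52 vesicle genes outside the 40, such as tetraspanins, syndecans, synaptotagmin-like proteins and sphingomyelin enzymes, 51, 52 and 51 were measured in all cells of the 3 pairs. In order of the pairs, 6 (11.8%), 4 (7.69%) and 11 (21.6%) were higher in TOE, beside 15.4%, 5.04% and 28.1% of all genes. Those lower were 8 (15.7%), 0 and 6 (11.8%), beside 13.8%, 8.44% and 15.1%. In mesenchymal-like cells 37, 46 and 39 were measured, with 4 (10.8%), 10 (21.7%) and 6 (15.4%) higher, beside 8.23%, 7.74% and 25.5%. The lower ones there were 3 (8.11%), 2 (4.35%) and 1 (2.56%), beside 12.3%, 12.0% and 7.3%. The share higher was thus above the background at 4d 4h and below it at 4d 24h in mesenchymal-like cells. At 4d 4h the sub-clusters of the class also differed between TO and TOE, and their part in this share was not tested. In osteoblast-like cells alone, 13 in TO and 39 in TOE, 4 of 17 genes were higher there, beside 21.6% of all genes. Without sub-clusters led by genes of other cells, 10 of 44 were higher, beside 8.3%. Sdc1, which encodes syndecan-1, was past 1.5-fold and higher in TOE in all 3 pairs in mesenchymal-like cells. In order of the pairs it went from 69.6 to 109 CPM, from 59.0 to 114 CPM and from 8.08 to 34.8 CPM. With the low-UMI cluster among these cells it did not differ at 2d 4h, with 69.1 CPM in TO and 69.3 CPM in TOE, and it stayed higher in TOE at 4d 4h, with 57.5 and 109 CPM, and at 4d 24h, with 7.36 and 30.2 CPM. At 2d 4h most low-UMI TOE cells lay in a cluster with progenitor markers raised at the finer clustering, and their kind was not settled. Sub-cluster shares alone gave a log2 ratio of -0.12, 0.02 and 0.74 in these pairs, beside 0.65, 0.95 and 2.11 for the class. In osteoblast-like cells, the lowest sub-cluster for Sdc1 with 7.71 CPM, it did not reach 50 UMIs in any pair. The rise was not particular to mesenchymal-like cells. At 2d 4h and 4d 4h Sdc1 also passed 1.5-fold in all cells and in monocyte-like, macrophage-like and osteoclast-like cells. In B-cell-like cells it did so at 2d 4h and 4d 24h. In mast-cell/basophil-like cells it was higher in TOE at 4d 4h and lower at 4d 24h. Sdc1 is also a marker of plasma-cell-like cells. The other 6 markers of that class summed to 81.8 and 110 CPM, 91.6 and 107 CPM, and 1333 and 143 CPM in TO and TOE of the 3 pairs, and their part in the Sdc1 values was not tested. In all cells Sytl5, a Rab27 effector, was higher in TOE in all 3 pairs at low levels, with 0.452 and 1.03 CPM, 0.627 and 1.20 CPM, and 1.02 and 3.65 CPM. It also passed 1.5-fold in all 3 pairs of erythroid-like cells, and without those cells it fell short at 4d 4h, with 0.508 and 0.597 CPM.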

How the data were processed

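Single-cell suspensions of the osteotomy site had been made into libraries on the 10x Genomics Chromium platform. The authors deposited raw counts, whole numbers of UMIs per gene and barcode, with no normalization. The submitters' processing notes list Cell Ranger 9.0.0, R 4.0.3, Seurat and the builds mRatBN7.2 and GRCh38, with no role for the latter. The 40 genes, the wider list and the markers were chosen with earlier results of these data known, so they give no independent support to any pattern.

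Cells were kept from 200 detected genes up and to a mitochondrial share of 20%, and those with a Scrublet score of 0.25 or more were removed (scanpy 1.11.5). Scaled counts of 2000 variable genes, without the 40, gave 30 components, a graph of 15 neighbours and Leiden clusters at resolution 1 (igraph 0.11.9). A cluster was named where at least 3 markers and at least 50% of a class's markers were raised, and left unnamed where it fell below its library's median UMI count divided by 3. Both limits were set after clusters had been seen, as were the levels within clusters, the immediate-early list, the comparison by hour and the alternatives described as added. A class was described where at least 4 libraries held 20 or more of its cells.

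UMIs were summed per library and class. Ratios of CPM have exact conditional intervals and levels exact Poisson intervals, both at 95%. Called genes differed by at least 1.5-fold with at least 50 UMIs over the pair. Sums were tested with edgeR 4.0.16 in R 4.3.3 (quasi-likelihood test, filterByExpr, TMM, pair as a block), with DESeq2 1.42.0 as an alternative. The animals behind each library are not given, so these p-values measure the spread between libraries. On simulated counts of the comparison of TOE with TO, 193 of 200 genes changed 2-fold were recovered in all cells (21001 genes) and 183 of 200 in mesenchymal-like cells (11778 genes). Simulated counts need not share the spread between real pairs of unlike day and hour. The recovery therefore does not tell whether 2-fold changes were missed in these data. Genes given in full were the 10 with the largest ratio of highest to median class, up to 5 per direction with the largest change past 1.5-fold in each pair, and those past an adjusted p of 0.05. Others were chosen after their values were seen. Promoters came from RefSeq (GRCr8), matched by symbol. Tables and figures were made with matplotlib 3.10.9, pandas 2.3.3, scipy 1.17.1 and numpy 2.4.6 in python 3.11.15. The alternatives were other cell filters, resolutions, minimum counts, ways of summing, centring, tools and size factors, no filter on low counts, no replicate block, and leaving out each pair or library.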

Additional observations from a re-analysis of the deposited data

Results flagged for a closer look

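Some genes were past 1.5-fold in opposite directions in different pairs of TOE and TO. In all cells, the log2 ratio of Smpd3 was -0.64, 1.25 and 0.63 in order of the pairs 2d 4h, 4d 4h, 4d 24h, and that of Pld2 was -0.61 in the first pair and 0.85 in the last. In mesenchymal-like cells, Stam2 had -0.88 in the first pair and 0.62 in the last, Chmp3 had -0.97 and 0.73 in the same pairs, and Sdcbp had -0.70 in the second pair and 0.60 in the last. Each value rests on 1 library per arm, so these differences between pairs were not tested. Relative to the median of all genes in the last pair of mesenchymal-like cells, Stam2, Chmp3 and Sdcbp were within 1.5-fold there. With the low-UMI cluster among the mesenchymal-like cells, Stam2 and Chmp3 were within 1.5-fold in the first pair, with ratios of 0.684 and 0.993, so neither passed in opposite directions. At the finer clustering, most low-UMI TOE cells of the first pair lay in a cluster with progenitor markers raised, and their kind was not settled.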

How the results depend on the processing

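Every pair rests on 1 library per arm, and counts in mesenchymal-like cells rest on 63 to 275 cells a library. Of 314 recomputed values, 224 stayed within 1.5 times and 90 moved. In all cells, averaging the CPM of single cells gave 1 gene higher in each of the first 2 pairs, and in the last pair both centring on all genes and leaving out erythroid-like cells gave 2 higher. Without erythroid-like cells, 27.5% of all genes were higher in TOE in the last pair. In mesenchymal-like cells at 2d 4h, the genes higher were 2 at Leiden resolutions 0.5 and 2, with the low-UMI cluster, without sub-clusters led by genes of other cells, with doublets kept, averaged over cells and centred, and 0 with the 40 genes among the variable genes. Of all genes, 23.2% were higher with the low-UMI cluster and 9.47% without those sub-clusters. The shares under the other alternatives of this kind are not given here. At 2d 4h, 1 of 12 measured genes was lower in osteoblast-like cells alone, beside 18.9% of all genes, and 7 with no minimum count. At 4d 4h, osteoblast-like cells alone gave 4 of 18 higher (22.2%) and 0 lower, beside 21.6% and 11.5% of all genes, averaging gave 4 and 5, and the low-UMI cluster gave 0 lower. At 4d 24h, osteoblast-like cells alone gave 2 higher and 3 lower of 33, beside 12.9% and 13.8%, and centring gave 3 and 3, while 0 were lower at both resolutions, with the 40 genes among the variable genes, without those sub-clusters and with doublets kept. Mesenchymal-like cells stayed the highest class for 2 genes under the 6 alternatives run.

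Averaged over pairs, the genes lower in B-cell-like cells were 1 by DESeq2 and 2 with no filter, and in neutrophil-like cells 1 with no filter. In this order, the fits called 0.0436%, 1.25% and 1.42% of all genes. Leaving out a pair gave 0 to 1 higher and 0 to 3 lower in B-cell-like cells. Both maxima came without 4d 4h, where 8.95% of all genes passed. The replicate numbers in the labels do not pair libraries, and with no replicate block 0 genes were called in each population, as with the pair as a block. By hour, DESeq2 gave 2 higher and 2 lower in all cells, 1 and 1 in mesenchymal-like cells, and 2 and 8 in B-cell-like cells. It gave 6 and 3 in monocyte-like, 2 and 1 in neutrophil-like, and 0 and 1 in macrophage-like cells. In this order, these are 10%, 5%, 25%, 23.1%, 7.69% and 2.63% of the listed genes tested. Of all genes it called 15.5%, 10.2%, 25.4%, 21.2%, 14.4% and 8.93%. Leaving out each library gave 0 to 4 higher and 1 to 12 lower in B-cell-like cells, 0 to 2 and 0 to 7 in all cells, 1 to 4 and 1 to 8 in monocyte-like, 0 to 5 and 0 to 3 in neutrophil-like, and 0 to 1 lower in macrophage-like cells. The highest count of each kind came without TOE 4d 24h, where 31.8% of all genes passed in B-cell-like cells, 16.3% in all cells, 27.8% in monocyte-like, 18.6% in neutrophil-like and 9.71% in macrophage-like cells. The cause of these moves was not tested.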
